A study of Mus musculus with 10 samples.

Results

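The genes described here are the 10 mouse Toll-like receptor genes Tlr1, Tlr2, Tlr3, Tlr4, Tlr6, Tlr7, Tlr8, Tlr9, Tlr12 and Tlr13, out of 32285 genes in the count tables. They were taken by name, not by their values, and their levels were read in single phagocytes of mouse Peyer's patches and blood. Each of the 10 genes had at least 1 UMI (unique molecular identifier, a counted mRNA molecule) in every sorted population, apart from CD43+ monocytes, where Tlr3 had 0 in one dataset and Tlr12 had 0 in the other.

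Toll-like receptors are membrane proteins that bind conserved molecules of microbes and pass the signal to adaptors such as MyD88, kinases of the IRAK family and transcription factors of the NF-kappaB and IRF families. TLR1, TLR2, TLR4 and TLR6 act at the cell surface, where TLR2 pairs with TLR1 or TLR6 to bind bacterial lipopeptides and TLR4 binds lipopolysaccharide. TLR3, TLR7, TLR8, TLR9 and TLR13 act in endosomes on nucleic acids, and in the mouse TLR12 senses profilin of protozoa together with TLR11. Peyer's patches are lymphoid tissue of the small intestine that takes up material from the gut lumen, and LysoDCs are their lysozyme-expressing phagocytes.

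All animals were female C57BL/6Rj mice, whose age was not given. Peyer's patch cells came from untreated mice. They were follicular, immature, intermediate and mature LysoDCs, and immature and maturing type 2 conventional dendritic cells (cDC2s), obtained by collagenase II and DNase I digestion, magnetic enrichment of CD11c+ cells and flow sorting. Blood cells with high CD115 were sorted into CD43+ monocytes, Ly6C+ monocytes and a population without either marker, the double-negative (DN) blood cells. The blood donors had received clodronate-loaded liposomes intravenously 9 days earlier, which depletes phagocytes and was used to raise the number of DN cells. Tissue, digestion and liposome treatment therefore differed together between LysoDCs and blood cells and cannot be told apart. Dataset 1 was 1 library from pooled cells of 30 Peyer's patch and 20 blood donors, with 9 antibody hashtags that mark the populations. Dataset 2 was made from 20 and 18 donors in 4 libraries. Its DN cells were sorted by CCR2, a chemokine receptor of monocytes, into CCR2+ and CCR2- cells and run in 2 of these libraries, but they share 1 hashtag and are summed here, whereas the labels of dataset 1 give no CCR2 gate. The library titles of dataset 2 name follicular LysoDCs with CD43+ monocytes and immature LysoDCs with CCR2+ DN cells. They name intermediate LysoDCs with CCR2- DN cells and mature LysoDCs with Ly6C+ monocytes. The LysoDC hashtags of dataset 2 recur in each library, however, and were not assigned to subsets. LysoDCs therefore enter the tests as 1 sum per dataset, and the mix of subsets in that of dataset 2 is not known. No blood population shared a library with another there, while LysoDCs were in all 4. After hashtag calling and filtering, 7878 and 7470 cells remained, with medians of 2312 to 14346 UMIs per cell and 2043004 to 28778760 UMIs per population.

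Among the LysoDC markers, Lyz1, coding for lysozyme, was at 12775 and 12059 UMIs per 1000000 UMIs (CPM) in the LysoDCs of datasets 1 and 2. Mertk, a receptor for apoptotic cells, was at 47.0 and 50.9 CPM there. The summed level of the 10 LysoDC markers was highest in LysoDCs, at 67830 and 63260 CPM. Ly6C+ monocytes followed at 46450 and 38970 CPM, so the whole list is not particular to LysoDCs. The cDC2 label fitted in part. Flt3, a growth factor receptor of dendritic cells, stood at 106 CPM in immature and 65.6 CPM in maturing cDC2s, but Cd209a, a lectin gene of many cDC2s, reached 10.5 and 35.2 CPM where DN blood cells held 511 and 747 CPM. The summed level of the 7 cDC2 markers was 358 and 395 CPM in the cDC2 sorts, within the 340 to 473 CPM of LysoDCs and monocytes and below the 1358 and 1893 CPM of DN cells. The 7 cDC1 markers summed to 409 and 307.9 CPM in the cDC2 sorts and to 65.1 to 315 CPM elsewhere. Cells with a pair of markers of another cell type made up 3.05% to 10.2% of the Peyer's patch populations and at most 1.61% of the blood populations. Both datasets shared 37 cell barcodes, 18 of them among the cells used.

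The genes lie on 6 chromosomes of GRCm38. Tlr1 (chromosome 5, 64924679 to 64933563, minus strand) and Tlr6 (chromosome 5, 64952031 to 64960097, minus strand) are neighbours, 18467 bases apart. Tlr8 (chromosome X, 167242696 to 167264329) and Tlr7 (chromosome X, 167304929 to 167330558) are also neighbours, 40599 bases apart on the minus strand. Tlr2 is at chromosome 3, 83836272 to 83841767, Tlr13 at chromosome X, 106143204 to 106160493, and the single-exon Tlr12 at chromosome 4, 128615443 to 128618619. Tlr4 (chromosome 4, 66827584 to 66930284), Tlr9 (chromosome 9, 106222598 to 106226883) and Tlr3 (chromosome 8, 45395665 to 45411080) have no other member beside them, and Tlr3 is the member that overlaps a gene on the opposite strand, Gm45542. Transcripts of Tlr1 and Tlr6 share 400 of 3061 stretches of 60 bases, but none in their last 500 bases, the end that a 3' kit counts.

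The 250 bases before the start of Tlr1, Tlr12, Tlr2 and Tlr13 are shown because these are the genes that differed most between LysoDCs and blood cells, the first pair higher and the second pair lower in LysoDCs. They are RefSeq sequences of GRCm38.p6, written along the gene's own strand. For Tlr1, Tlr2 and Tlr13 the start used differs from the gene position given above. Part of each of these windows therefore lies inside the gene as placed there. The regions are chr5:64933559-64933808 (Tlr1), chr4:128618620-128618869 (Tlr12) and chr3:83841609-83841858 (Tlr2), all on the minus strand, and chrX:106143025-106143274 (Tlr13) on the plus strand. Capitals mark the motif AGGAAGT, of the type bound by the myeloid factor PU.1, in Tlr1 and Tlr12, the NF-kappaB-type motif GGGANNNNCC in Tlr2, and the shorter ETS core GAGGAA in Tlr13.
Tlr1: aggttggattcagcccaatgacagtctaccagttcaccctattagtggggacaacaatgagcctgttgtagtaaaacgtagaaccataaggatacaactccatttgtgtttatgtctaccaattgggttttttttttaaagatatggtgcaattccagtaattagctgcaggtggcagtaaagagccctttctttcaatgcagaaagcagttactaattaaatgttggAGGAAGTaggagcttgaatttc
Tlr12: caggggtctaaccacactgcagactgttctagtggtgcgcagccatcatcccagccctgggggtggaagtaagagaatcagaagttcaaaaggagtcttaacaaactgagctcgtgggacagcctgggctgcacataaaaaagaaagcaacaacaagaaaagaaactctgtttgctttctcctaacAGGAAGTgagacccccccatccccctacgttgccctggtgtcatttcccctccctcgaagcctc
Tlr2: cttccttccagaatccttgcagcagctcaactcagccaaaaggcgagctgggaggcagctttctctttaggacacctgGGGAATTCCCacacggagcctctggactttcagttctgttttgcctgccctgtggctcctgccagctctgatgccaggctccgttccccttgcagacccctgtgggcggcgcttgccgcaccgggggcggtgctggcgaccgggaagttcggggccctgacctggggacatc
Tlr13: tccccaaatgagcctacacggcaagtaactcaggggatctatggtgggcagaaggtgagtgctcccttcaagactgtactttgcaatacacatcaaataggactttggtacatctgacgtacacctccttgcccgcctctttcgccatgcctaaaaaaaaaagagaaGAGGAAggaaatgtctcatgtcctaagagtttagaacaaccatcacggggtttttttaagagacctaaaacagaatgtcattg
On both strands, AGGAAGT was present in the windows of Tlr1, Tlr12 and Tlr6 and in 7.69% of all 32851 windows of this length. GAGGAA was present in those of Tlr1, where it overlaps AGGAAGT, Tlr8, Tlr9 and Tlr13 and in 23.3% of all windows, and GGGANNNNCC in those of Tlr2 and Tlr3 and in 17.6%. The C/EBP-type motif TTGCNNAA was found for Tlr3, Tlr6 and Tlr8 (9.56% of all windows), the RUNX-type TGTGGTT for Tlr6 and Tlr12 (4.4%), CACGTG for Tlr1 (6.02%), TGANTCA for Tlr9 (6.75%) and GAAANNGAAA, of interferon response elements, for Tlr6 (2.98%). The search covered 10 windows of 8 members, the others being Tlr4 and Tlr7. A match describes letters only.

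Tlr1 and Tlr12 were higher in LysoDCs than in each of the 3 blood populations, and Tlr2 and Tlr13 were lower than in each. Against Ly6C+ monocytes, 2 of the 10 genes were higher and 3 lower at an adjusted p under 0.05, where 26.2% of the 11474 genes tested were higher and 25.3% lower. Against CD43+ monocytes, 3 were higher and 4 lower, beside 28.7% and 26.9% of all genes. Against DN blood cells, 3 were higher and 3 lower, beside 26.3% and 26.9%. These counts are near the shares of all genes that passed, so what follows describes which genes changed and by how much. The median log2 change of the 10 genes was -0.57 against Ly6C+ monocytes, -0.56 against CD43+ monocytes and 0.41 against DN cells, with medians over all genes of 0.0019, 0.023 and -0.030. The test was edgeR's quasi-likelihood test on sums of counts from 2 pools of mice per population, with the dataset as a block. All p-values below are its Benjamini-Hochberg adjusted values over all genes tested. The 3 LysoDC comparisons share the same LysoDC sums, and a pool with less of an mRNA per cell cannot be told apart from one with fewer cells that carry it.

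**Figure D1:**
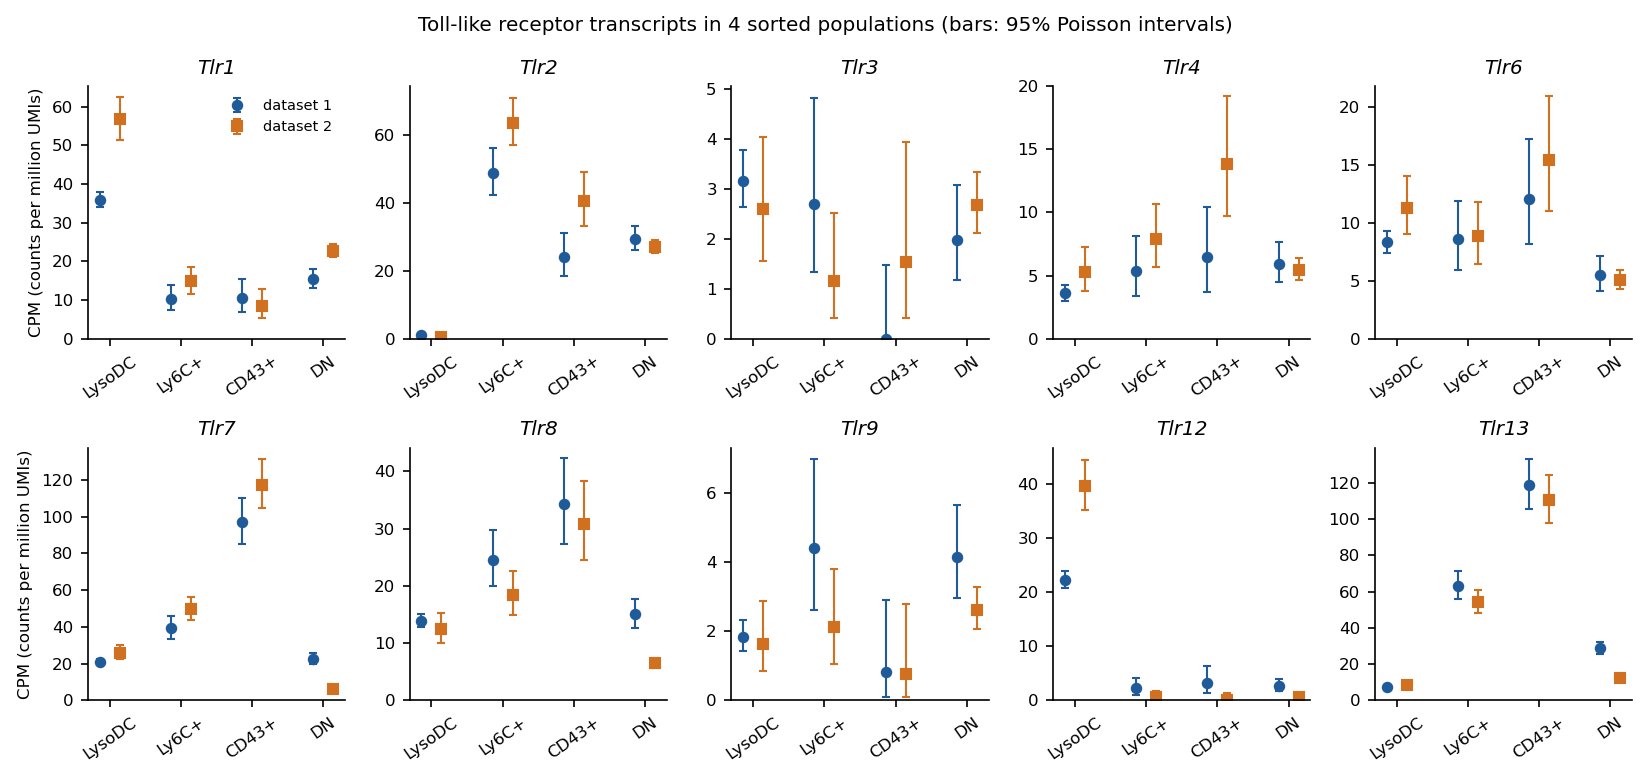
Level of each Toll-like receptor gene (CPM) in LysoDCs, DN blood cells and both monocyte populations of each dataset. Exact Poisson 95% intervals cover counting error only. Tlr1 and Tlr12 lie highest in LysoDCs, Tlr2 lies at 1.23 and 0.546 CPM there against 24.2 CPM or more in blood, and Tlr7 and Tlr13 lie highest in CD43+ monocytes.

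Among the surface receptors, Tlr2 showed the widest gap. Its level was 1.23 CPM in LysoDCs of dataset 1 and 0.546 CPM in dataset 2, from 47 and 4 UMIs. It was 48.8 and 63.5 CPM in Ly6C+ monocytes, 24.2 and 40.4 CPM in CD43+ monocytes and 29.4 and 27.0 CPM in DN cells. Every blood value lay far above both LysoDC values. Tlr2 was lower in LysoDCs than in Ly6C+ monocytes by 39.6-fold (95% counting interval 28.7 to 55.7) in dataset 1 and 116-fold (44.99 to 429) in dataset 2. The log2 change was -5.50 (SE 0.32, adjusted p = 1.613e-06) against Ly6C+ monocytes, -4.49 (adjusted p = 7.295e-06) against CD43+ monocytes and -4.53 (adjusted p = 3.767e-06) against DN cells. A Tlr2 UMI was seen in 1.56% and 0.587% of LysoDCs, against 18.5% and 28.9% of Ly6C+ monocytes, although LysoDCs were the deeper cells.

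Tlr1, which codes for the partner of TLR2 for triacylated lipopeptides, went the other way. It stood at 35.9 and 56.8 CPM in LysoDCs, 10.3 and 14.8 CPM in Ly6C+ monocytes, 10.5 and 8.47 CPM in CD43+ monocytes and 15.4 and 22.8 CPM in DN cells. Both LysoDC values were above all 6 blood values. The log2 change was 1.94 (SE 0.20, adjusted p = 1.681e-05) against Ly6C+ monocytes, 2.54 (adjusted p = 5.53e-06) against CD43+ monocytes and 1.31 (adjusted p = 9.244e-05) against DN cells. Tlr1 was thus the most abundant member in LysoDCs, with 30.3% and 34.5% of all UMIs of the 10 genes, while Tlr2 held 1.04% and 0.332%.

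Tlr6, which codes for the other partner of TLR2, was at 8.33 and 11.3 CPM in LysoDCs, 8.57 and 8.85 CPM in Ly6C+ monocytes, 12.1 and 15.4 CPM in CD43+ monocytes and 5.49 and 5.07 CPM in DN cells. It was higher in LysoDCs than in DN cells (log2 change 0.95, SE 0.20, adjusted p = 0.00202). The other 2 comparisons did not pass, with log2 changes of 0.23 (adjusted p = 0.399) and -0.22 (adjusted p = 0.42). Tlr4 was a low-level gene, at 3.59 and 5.32 CPM in LysoDCs, 5.39 and 7.89 CPM in Ly6C+ monocytes, 6.44 and 13.9 CPM in CD43+ monocytes and 5.91 and 5.46 CPM in DN cells. It was lower in LysoDCs than in CD43+ monocytes (log2 change -0.90, SE 0.31, adjusted p = 0.0292), and this call was lost without either LysoDC pool (adjusted p = 0.107 and 0.0818) and without the CD43+ pool of dataset 2 (log2 change -0.45, adjusted p = 0.439). It was also lost by DESeq2 (adjusted p = 0.0806) and without the dataset block (adjusted p = 0.0672). Tlr4 did not pass against the other 2 populations.

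Tlr12, the profilin receptor gene, was a LysoDC gene among these populations. It stood at 22.3 CPM in LysoDCs of dataset 1 (853 UMIs) and 39.7 CPM in dataset 2 (291 UMIs). In dataset 1 it was at 2.20 CPM in Ly6C+ monocytes, 3.22 CPM in CD43+ monocytes and 2.69 CPM in DN cells. In dataset 2 these levels were 0.577 CPM (3 UMIs), 0 CPM and 0.695 CPM. The LysoDC values were the highest in both datasets. Against Ly6C+ monocytes the fold was 10.1 in dataset 1 and 68.8 in dataset 2, and against DN cells it was 8.29 and 57.2. Against CD43+ monocytes it was 6.94 in dataset 1. In dataset 2, where the CD43+ sum had 0 UMIs, the counting interval of the fold began at 27.8. A floor of 3 counts for the CD43+ sum gave 34.4. The log2 change was 4.63 (SE 1.002, adjusted p = 0.0196) against Ly6C+ monocytes, 4.57 (SE 1.11, adjusted p = 0.0258) against CD43+ monocytes and 4.54 (SE 0.81, adjusted p = 0.0101) against DN cells.

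LysoDC transcripts counted in the blood sums bear on the low Tlr12 values there. The source of these transcripts was not tested. C1qa, C1qb, C1qc and Adamdec1, which LysoDCs express, appeared in blood populations of dataset 1 at 3.53% to 6.18% of their LysoDC level, and in dataset 2 at 0.404% to 1.57%. At those shares Tlr12 would reach 0.802 to 1.17 CPM in Ly6C+ monocytes of dataset 1, where 2.20 CPM (1.01 to 4.19) was measured. For DN cells of dataset 1 the shares give 0.789 to 1.30 CPM, where 2.69 CPM (1.76 to 3.95) was measured. In dataset 2 they give 0.160 to 0.362 CPM for Ly6C+ monocytes, where 0.577 CPM (0.119 to 1.69) was measured, and 0.337 to 0.508 CPM for DN cells, where 0.695 CPM (0.425 to 1.07) was measured. These ranges overlap the intervals of the measured levels on which the folds of 68.8 and 57.2 rest. The call against Ly6C+ monocytes was lost without the Ly6C+ pool of dataset 1 (log2 change 5.62, adjusted p = 0.0938) or of dataset 2 (4.00, adjusted p = 0.151). The call against CD43+ monocytes was lost without either Ly6C+ pool (adjusted p = 0.0558 and 0.0636) and without the CD43+ pool of dataset 1 (adjusted p = 0.0655) or dataset 2 (log2 change 3.52, adjusted p = 0.124).

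Of the endosomal receptors, Tlr13, whose product binds bacterial ribosomal RNA in the mouse, was lower in LysoDCs than in each blood population. It was at 7.31 and 8.19 CPM in LysoDCs, 63.2 and 54.3 CPM in Ly6C+ monocytes, 119 and 111 CPM in CD43+ monocytes and 28.6 and 12.2 CPM in DN cells. No LysoDC value reached a blood value, and the nearest were the DN cells of dataset 2. The log2 change was -2.89 (SE 0.30, adjusted p = 0.000142) against Ly6C+ monocytes, -3.65 (SE 0.30, adjusted p = 3.907e-05) against CD43+ monocytes and -1.28 (SE 0.29, adjusted p = 0.00738) against DN cells. The last call was lost without the LysoDC pool of dataset 1 (log2 change -0.98, adjusted p = 0.116), and the DN gap was 3.92-fold in dataset 1 and 1.49-fold in dataset 2.

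Tlr7, which codes for a receptor of single-stranded RNA, was at 20.8 and 25.9 CPM in LysoDCs, 39.2 and 49.8 CPM in Ly6C+ monocytes and 97.1 and 117 CPM in CD43+ monocytes. In DN cells it was at 22.6 CPM in dataset 1 but 6.01 CPM in dataset 2. LysoDCs lay below both monocyte populations in both datasets. The log2 changes of -0.90 (adjusted p = 0.332) and -1.94 (adjusted p = 0.0741) did not pass in the fit with all 8 sums. In that fit all populations share an estimate of the spread, so the DN pools enter it in these comparisons too. Other fits of the 8 sums called the gene lower. DESeq2 did so against CD43+ monocytes (-1.92, adjusted p = 0.000717), and edgeR with no filter on low counts did so against CD43+ (-1.90, adjusted p = 1.149e-24) and Ly6C+ monocytes (-0.87, adjusted p = 8.273e-06). Leaving out the DN pool of dataset 1 gave -0.85 (adjusted p = 6.238e-05) against Ly6C+ and -1.92 (adjusted p = 5.493e-11) against CD43+ monocytes, and leaving out the DN pool of dataset 2 gave -0.85 (adjusted p = 6.027e-05) and -1.92 (adjusted p = 5.972e-11). Against DN cells, the LysoDC level of Tlr7 was 0.922-fold (0.792 to 1.08) in dataset 1 and 4.31-fold (3.49 to 5.33) in dataset 2, with a pooled log2 change of 0.90 (adjusted p = 0.330), which passed with no filter on low counts (0.91, adjusted p = 3.574e-06). It was 2.12 (adjusted p = 6.382e-09) without the DN pool of dataset 1 and -0.01 (adjusted p = 0.976) without that of dataset 2. The DN pools also differed in Ly6c2, at 116 and 10.98 CPM, in Spn, the CD43 gene, at 105 and 61.2 CPM, and in Cd209a, at 511 and 747 CPM, and the CCR2 gate is given for dataset 2 alone. The part of these differences in the Tlr7 result was not tested.

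Tlr8, the X-linked neighbour of Tlr7, was at 13.9 and 12.4 CPM in LysoDCs, 24.5 and 18.5 CPM in Ly6C+ monocytes, 34.2 and 30.8 CPM in CD43+ monocytes and 15.0 and 6.46 CPM in DN cells. It was lower in LysoDCs than in CD43+ monocytes (log2 change -1.04, SE 0.24, adjusted p = 0.00405), a call lost without the LysoDC pool of dataset 1 (adjusted p = 0.0567) and without the CD43+ pool of dataset 2 (adjusted p = 0.0581). It was lower than in Ly6C+ monocytes by a smaller margin (-0.63, adjusted p = 0.0443), a call that held in 10 of 19 alternatives and was lost without any 1 of the LysoDC pools (adjusted p = 0.283 and 0.0706) or Ly6C+ pools (0.0892 and 0.237). Against DN cells the change was 0.45 (adjusted p = 0.119), and 0.91 (adjusted p = 0.00239) without the DN pool of dataset 1.

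Tlr9 and Tlr3 were the members with the fewest counts. Tlr9, coding for the receptor of unmethylated CpG DNA, was at 1.83 and 1.64 CPM in LysoDCs, 4.41 and 2.12 CPM in Ly6C+ monocytes, 0.805 and 0.770 CPM in CD43+ monocytes (2 UMIs each) and 4.15 and 2.61 CPM in DN cells. It was lower in LysoDCs than in DN cells (log2 change -0.92, SE 0.32, adjusted p = 0.0300), a call that was lost without any 1 of the LysoDC pools (adjusted p = 0.323 and 0.0636) or DN pools (0.130 and 0.0624). It held in 10 of 18 alternatives, being lost also by DESeq2 (adjusted p = 0.210), without the dataset block (0.101), with no cell filter (0.0615) and with the scaled hashtag call (0.163), which sets each cell's best hashtag against its second best after scaling each to its background. Tlr3, coding for the receptor of double-stranded RNA, was at 3.17 and 2.59 CPM in LysoDCs, 2.69 and 1.15 CPM in Ly6C+ monocytes, 0 and 1.54 CPM in CD43+ monocytes and 1.97 and 2.68 CPM in DN cells. Its call against CD43+ monocytes (log2 change 2.21, adjusted p = 0.0393) was lost without the LysoDC pool of dataset 1 (1.81, adjusted p = 0.180) and without the CD43+ pool of dataset 1 (1.16, adjusted p = 0.277). DESeq2 (adjusted p = 0.0626) and scaling by library totals (adjusted p = 0.0735) lost it too. In dataset 1 the counting interval of the fold of LysoDCs over CD43+ monocytes began at 2.10, and a floor of 3 counts gave 2.62.

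**Figure D2:**
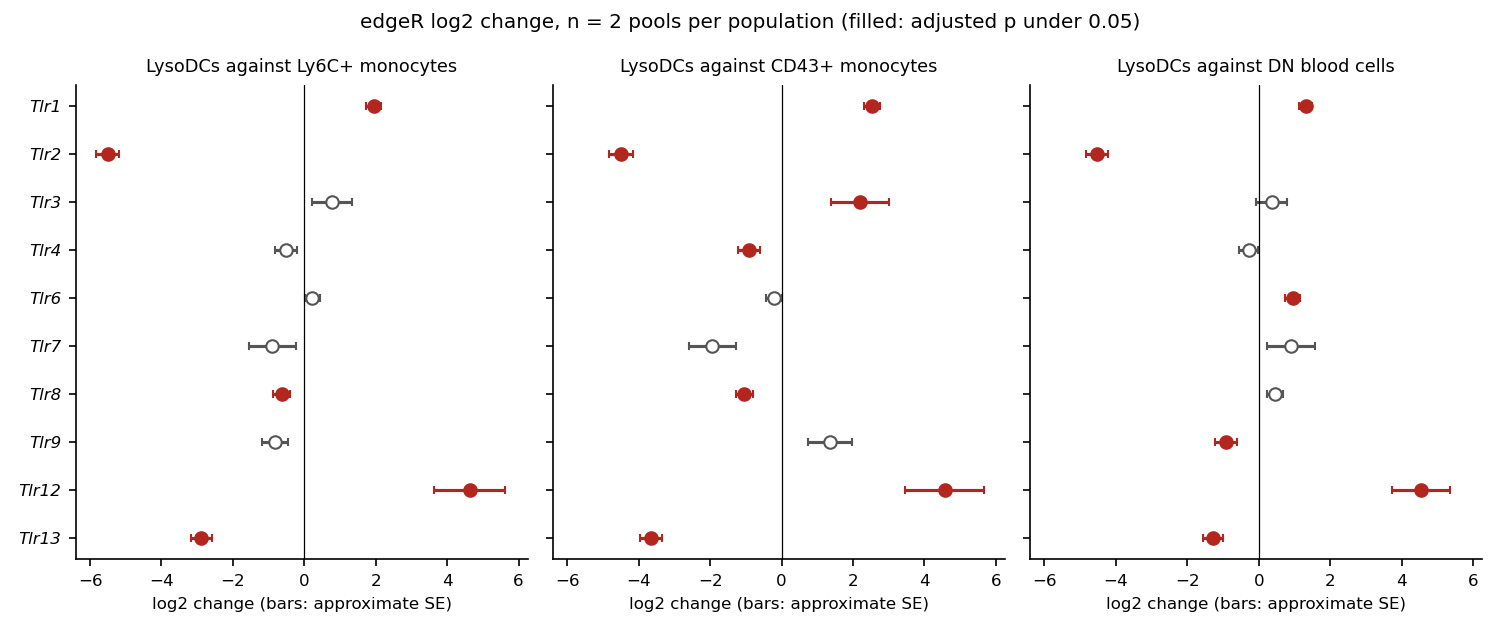
Log2 change of each Toll-like receptor gene in LysoDCs against each of the 3 blood populations from edgeR, with bars of 1 approximate standard error and filled symbols for an adjusted p under 0.05. Tlr1 and Tlr12 lie to the right in each comparison and Tlr2 and Tlr13 to the left, while the other 6 genes lie between -1.94 and 2.21.

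Among the blood populations, CD43+ monocytes had the largest share of Toll-like receptor UMIs among all UMIs. This is no amount per cell, since CD43+ monocytes were the shallowest cells. Unthinned, they had UMIs of 0.909 and 0.773 of the 10 genes per cell on average, against 0.824 and 1.10 in Ly6C+ monocytes. The 10 genes together came to 307.3 and 339 CPM in CD43+ monocytes, 209 and 221 CPM in Ly6C+ monocytes, 131 and 91.0 CPM in DN cells and 118 and 164 CPM in LysoDCs. CD43+ monocytes were led by Tlr13, with 38.7% and 32.6% of these UMIs, and Tlr7, with 31.6% and 34.6%. In Ly6C+ monocytes the leading genes were Tlr13 (30.2% and 24.5%) and Tlr2 (23.3% and 28.7%), and in DN cells Tlr2 took 22.4% and 29.7%. In the sum of all LysoDCs Tlr1 led and Tlr12 followed with 18.9% and 24.1%. This order was not that of each subset of dataset 1. Tlr12 led in follicular cells, with 38.9% against 22.3% for Tlr1, and stood below Tlr7 and Tlr8 in intermediate cells (10.8%) and below Tlr7, Tlr8 and Tlr13 in mature cells (7.60%).

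**Figure D3:**
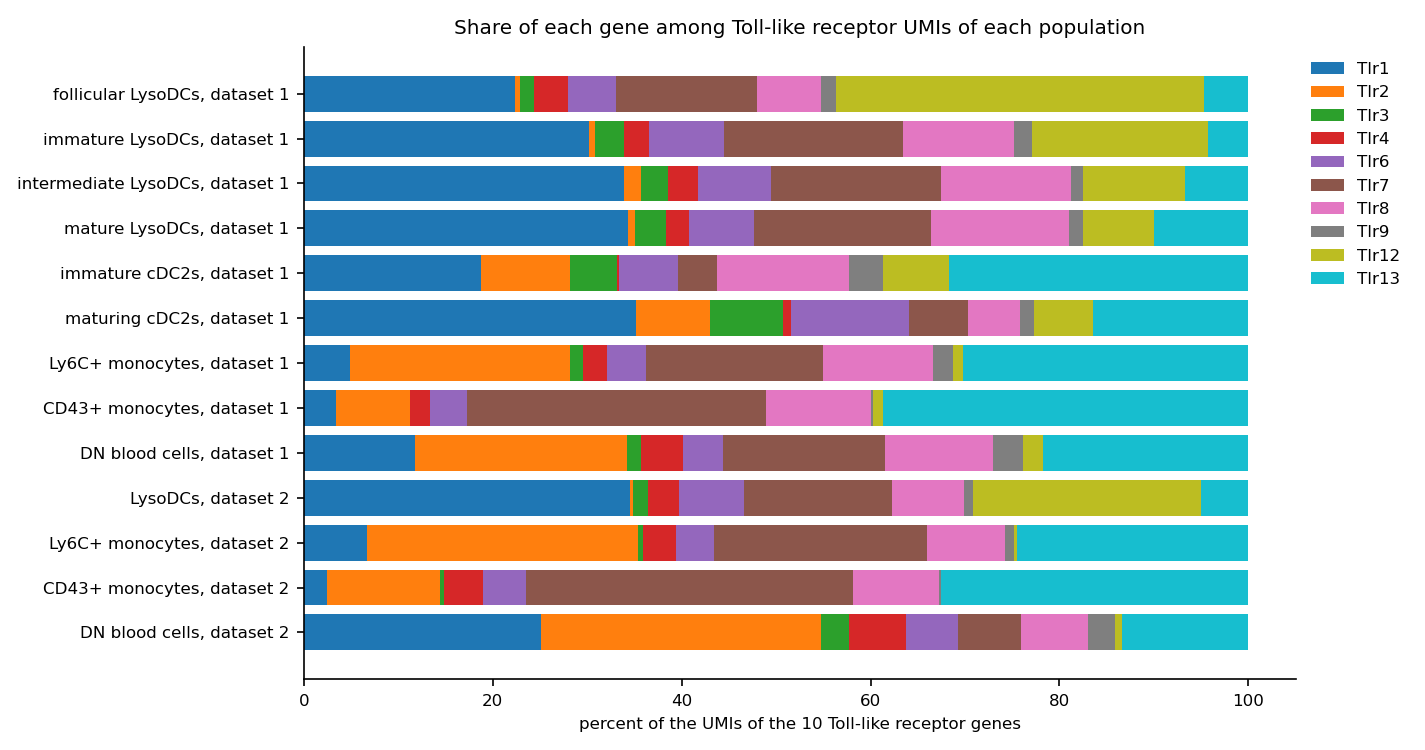
Share of each gene among all UMIs of the 10 Toll-like receptor genes (percent, stacked to 100) in each population of both datasets. LysoDCs are filled mostly by Tlr1, Tlr12 and Tlr7, CD43+ monocytes by Tlr13 and Tlr7, and Tlr2 takes 1.04% and 0.332% in LysoDCs against 23.3% and 28.7% in Ly6C+ monocytes.

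Between CD43+ and Ly6C+ monocytes, 2 of the 10 genes were lower in CD43+ cells and 0 higher, where 15.3% of all genes were lower and 14.4% higher. These were Tlr2 (log2 change -1.01, SE 0.26, adjusted p = 0.0196) and Tlr9 (-2.19, SE 0.62, adjusted p = 0.0218). DESeq2 also called 0 higher, and 1 member, Tlr13, was higher at an unadjusted p under 0.05 (0.0246). The Tlr2 call was lost without the CD43+ pool of dataset 1 (adjusted p = 0.138) and without the Ly6C+ pool of dataset 2 (0.216), and the Tlr9 call without any 1 of the 4 monocyte pools (0.0505 to 0.152), by DESeq2 (0.0615) and with the scaled hashtag call (0.0675). Tlr7 was 2.48-fold (2.02 to 3.04) and 2.36-fold (1.99 to 2.79) higher in the CD43+ sums, a log2 change of 1.05 that did not pass (adjusted p = 0.321). Tlr13 showed 0.76 (adjusted p = 0.0728). With no filter on low counts both passed (adjusted p = 2.311e-07 and 0.000278), and with library totals Tlr13 did (0.97, adjusted p = 0.0496). Without the DN pool of dataset 1 both genes passed, at 1.06 (adjusted p = 9.664e-06) for Tlr7 and 0.76 (adjusted p = 0.000415) for Tlr13, and without the DN pool of dataset 2 they passed at 1.06 (adjusted p = 9.541e-06) and 0.76 (adjusted p = 0.0004). Without the CD43+ pool of dataset 1, Tlr1 was lower (-1.06, adjusted p = 0.0269).

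DN cells were lower than Ly6C+ monocytes in 3 of the 10 genes and higher in 0, where 8.26% of all genes were lower and 8.05% higher. These were Tlr13 (log2 change -1.61, SE 0.28, adjusted p = 0.00875), Tlr8 (-1.08, SE 0.24, adjusted p = 0.0122) and Tlr2 (-0.97, SE 0.24, adjusted p = 0.0260). All 3 calls were lost without the Ly6C+ pool of dataset 2 (adjusted p = 0.149, 0.167 and 0.330), those of Tlr8 and Tlr2 also without the DN pool of dataset 2 (0.109 and 0.0956), and that of Tlr2 without the Ly6C+ pool of dataset 1 (0.0764). Without the dataset block those of Tlr8 and Tlr2 were lost (0.0779 and 0.0607), and with the scaled hashtag call those of Tlr13 and Tlr8 (0.145 and 0.0982). DESeq2 called 0 higher and 4 lower, the fourth being Tlr7 (-1.74, adjusted p = 0.00891). Of the 10 genes 1 was higher at an unadjusted p under 0.05, Tlr1, with a log2 change of 0.62 (adjusted p = 0.0609 by edgeR). It passed without either CD43+ pool (adjusted p = 0.0339 and 0.0342) and, at 0.70, without the DN pool of dataset 1 (0.0309), and also with no filter on low counts (0.0185) and without stray cells, those with markers of another cell type (0.0497). Tlr7 showed -1.80 (adjusted p = 0.190) by edgeR, with -1.78 (adjusted p = 4.164e-19) with no filter on low counts, -2.98 (adjusted p = 7.497e-11) without the DN pool of dataset 1 and -0.84 (adjusted p = 0.0119) without that of dataset 2. Without the DN pool of dataset 1, Tlr6 was also lower (-0.86, adjusted p = 0.0372), as it was with RLE scaling (adjusted p = 0.0497) and with no cell filter (adjusted p = 0.0328).

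Against CD43+ monocytes, DN cells were higher in Tlr1 (log2 change 1.23, SE 0.24, adjusted p = 0.00258) and Tlr9 (2.28, SE 0.56, adjusted p = 0.00977), where 17.9% of all genes were higher. They were lower in Tlr13 (-2.37, adjusted p = 0.000582), Tlr8 (-1.49, adjusted p = 0.000956), Tlr6 (-1.17, adjusted p = 0.00296) and Tlr7 (-2.84, adjusted p = 0.0478), where 16.8% of all genes were lower. Without the CD43+ pool of dataset 2, Tlr1 (0.77, adjusted p = 0.0810), Tlr6 (-1.07, adjusted p = 0.0594) and Tlr9 (2.52, adjusted p = 0.0620) did not pass, and Tlr9 did not without the CD43+ pool of dataset 1 (adjusted p = 0.101). The Tlr7 call was lost without any 1 of the LysoDC, Ly6C+ or CD43+ pools, with adjusted p from 0.0830 to 0.223, and held in 8 of 19 alternatives. RLE scaling, no cell filter, the stricter cell filter, the scaled hashtag call and hashtags called on all barcodes, a setting chosen after seeing the data, lost it too, with adjusted p from 0.0520 to 0.116. Without the DN pool of dataset 1, Tlr4 (-0.92, adjusted p = 0.0315) and Tlr3 (2.20, adjusted p = 0.0349) also passed, and Tlr3 did with no filter on low counts (adjusted p = 0.0276). Leaving out a DN pool moved the Tlr7 change to -4.04 (dataset 1) or -1.91 (dataset 2). Both DN comparisons share the DN sums.

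The 4 LysoDC subsets and 2 cDC2 sorts were separable in dataset 1 only, with 1 sum of cells each, so their values have counting intervals and no test. Of the 10 genes, Tlr12 had the widest range among the LysoDC subsets. It stood at 62.8 CPM (56.9 to 69.1) in follicular LysoDCs, 21.1 CPM (18.3 to 24.2) in immature, 11.6 CPM (9.94 to 13.4) in intermediate and 8.17 CPM (6.10 to 10.7) in mature LysoDCs. The intervals of follicular, immature and intermediate cells lay apart, while those of intermediate and mature cells overlapped. The follicular level was 2.98-fold (2.51 to 3.54) that of immature and 7.69-fold (5.75 to 10.5) that of mature LysoDCs. A Tlr12 UMI was found in 39.6% of follicular, 22.3% of immature, 14.3% of intermediate and 8.74% of mature cells, and after every cell was thinned to 1000 UMIs in 6.70%, 2.26%, 1.18% and 0.822%. The thinned shares thus fall in the same order as the levels. Both cDC2 sorts, which come from the same tissue, had a Tlr12 level of 3.76 and 3.92 CPM and a UMI in 2.28% of immature cDC2s, with median depths of 7370 UMIs against 10565 in follicular LysoDCs.

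Among the LysoDC subsets, the summed markers of plasmacytoid dendritic cells, B cells and cDC2s were highest in follicular cells. Those of cDC1s, neutrophils, T and NK cells, erythroid cells and both kinds of monocyte were not. Cells with 2 markers of another type were 10.2% of follicular LysoDCs, 48 of them by plasmacytoid dendritic cell genes, and 6.92%, 6.20% and 8.53% of the immature, intermediate and mature subsets. Siglech, a plasmacytoid marker, was at 16.0 CPM in follicular cells and at 1.67, 0.707 and 1.89 CPM in the other subsets, and the summed level of the 8 plasmacytoid markers was 1633 CPM against 1166 to 1253 CPM. With these cells left out, Tlr12 was at 60.5 CPM in follicular LysoDCs. Other settings placed it at 55.7 to 72.0 CPM.

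Of the other members, Tlr13 also differed between subsets. It was at 7.64 CPM (5.69 to 10.0) in follicular, 4.91 CPM (3.61 to 6.53) in immature, 7.26 CPM (5.98 to 8.73) in intermediate and 10.7 CPM (8.29 to 13.5) in mature LysoDCs. The mature level was 2.18-fold (1.48 to 3.23) the immature one, with intervals apart. Tlr1 was at 36.0, 34.4, 36.4 and 36.9 CPM in follicular, immature, intermediate and mature cells, with overlapping intervals. Tlr7 was at 24.0, 21.5, 19.3 and 20.1 CPM, and Tlr8 at 10.9, 13.4, 14.8 and 15.7 CPM. Tlr6 lay between 7.38 and 9.09 CPM, Tlr4 between 2.67 and 5.84 CPM, Tlr3 between 2.40 and 3.55 CPM, Tlr9 between 1.41 and 2.55 CPM and Tlr2, with 5 to 30 UMIs per subset, between 0.627 and 1.93 CPM. Over the 6 pairs of subsets, a fold of at least 2 with intervals apart was found for Tlr12 in 4 pairs and for Tlr13 in 1. The 10 genes summed to 161 CPM in follicular LysoDCs and 107 to 114 CPM in the other subsets, and Tlr12 took 38.9% of that sum in follicular and 7.60% in mature cells.

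**Figure D4:**
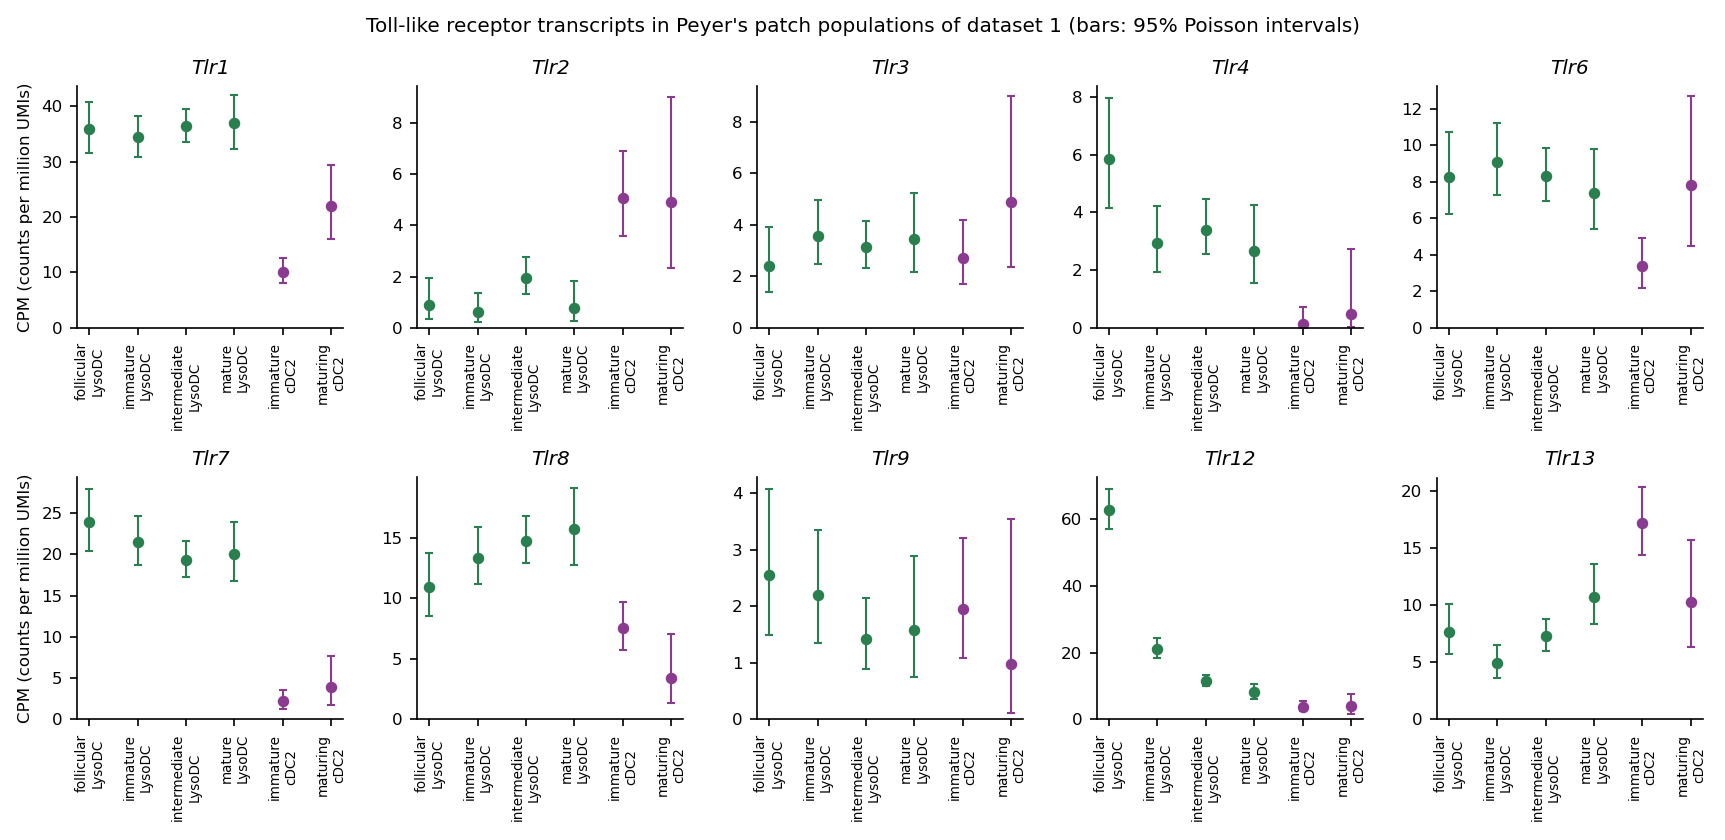
Level of each Toll-like receptor gene (CPM) in the 4 LysoDC subsets and 2 cDC2 sorts of dataset 1. Exact Poisson 95% intervals cover counting error only. Tlr12 runs from 62.8 CPM in follicular to 8.17 CPM in mature LysoDCs, Tlr1 stays between 34.4 and 36.9 CPM, and Tlr2 and Tlr13 lie higher in immature cDC2s than in all LysoDCs together.

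Compared with the cDC2s beside them, LysoDCs held more Tlr1, Tlr7 and Tlr12. All LysoDCs together were 3.55-fold above immature cDC2s in Tlr1, 9.44-fold in Tlr7, 5.94-fold in Tlr12 and 2.47-fold in Tlr6. Tlr4 had 1 UMI in 1009 immature and 1 in 262 maturing cDC2s, so its ratio of 27.7 to immature cDC2s has a counting interval of 4.88 to 1100. Immature cDC2s were above LysoDCs in Tlr2, at 5.06 against 1.23 CPM, and in Tlr13, at 17.1 against 7.31 CPM, a gene that took 31.7% of their Toll-like receptor UMIs. Against maturing cDC2s, LysoDCs were 5.32-fold (2.69 to 12.4) higher in Tlr7, 5.71-fold (2.88 to 13.3) in Tlr12 and 4.06-fold (1.96 to 10.2) in Tlr8, from 8, 8 and 7 UMIs in the cDC2s, and 3.98-fold lower in Tlr2. For Tlr4, with 1 UMI there, the ratio was 7.33 with an interval of 1.29 to 292. Maturing cDC2s held 22.0 CPM of Tlr1 against 10.1 CPM in immature cDC2s, a fold of 2.18 (1.47 to 3.18).

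LysoDC transcripts were present in the maturing cDC2 sum. C1qa was at 1649 CPM there and at 326 CPM in immature cDC2s, and the LysoDC genes C1qa, C1qb, C1qc and Adamdec1 came to 18.1% to 19.6% of their LysoDC level in maturing and 2.70% to 3.71% in immature cDC2s. At the share of maturing cDC2s, Tlr12 would be at 4.04 to 4.37 CPM, where 3.92 CPM was measured, and Tlr7 at 3.76 to 4.07 CPM, where 3.92 CPM was measured. Tlr8 would be at 2.51 to 2.72 CPM, where 3.43 CPM (1.38 to 7.06) was measured, and Tlr4 at 0.648 to 0.702 CPM, where 0.490 CPM (0.0124 to 2.73) was measured. Tlr1 would be at 6.49 to 7.03 CPM, below the 22.0 CPM measured. In immature cDC2s their share gives 0.969 to 1.33 CPM of Tlr1, where 10.1 CPM was measured. The Tlr1 fold of 2.18 between the cDC2 sorts is not corrected for these unequal shares. The levels of Tlr12, Tlr7, Tlr8 and Tlr4 in maturing cDC2s, from 8 UMIs or fewer each, cannot be told apart from this share, and the folds above rest on them. The 10 genes together gave 54.0 CPM in immature and 62.7 CPM in maturing cDC2s, the lowest sums among the populations.

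A LysoDC had UMIs of 1.28 (dataset 1) and 1.30 (dataset 2) of the 10 genes on average, and of 0.125 and 0.176 of them once thinned to 1000 UMIs. At least 1 of the 10 genes had a UMI in 74.9% of LysoDCs of dataset 1 and 72.4% of dataset 2, in 59.5% and 55.7% of CD43+ monocytes and in 57.3% and 69.9% of Ly6C+ monocytes. Median depths were 13242 and 8999 UMIs in LysoDCs and 2970 and 2312 UMIs in CD43+ monocytes. The thinned shares were 11.8% and 16.2% of LysoDCs, 25.9% and 28.7% of CD43+ monocytes, 19.0% and 19.6% of Ly6C+ monocytes and 12.8% and 9.28% of DN cells. In each dataset they follow the order of the summed levels, not that of the unthinned shares.

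The genes that act with these receptors were counted in lists chosen by role. The share of all genes that passed, against which these counts stand, was 26.2% higher and 25.3% lower against Ly6C+ monocytes, 28.7% and 26.9% against CD43+ monocytes and 26.3% and 26.9% against DN cells. The lists were not compared with each other or tested. Of 11 chaperones and trafficking genes, 6 were higher and 1 lower in LysoDCs than in Ly6C+ monocytes, 6 and 0 against CD43+ monocytes, and 6 and 1 against DN cells. Slc15a3, which codes for an endolysosomal histidine transporter, was at 223 and 244 CPM in LysoDCs and 108 and 72.5 CPM in Ly6C+ monocytes (log2 change 1.48, adjusted p = 2.735e-05). Unc93b1, whose product carries the endosomal receptors from the endoplasmic reticulum, was at 301.8 and 413.6 CPM in LysoDCs and 179 and 177 CPM in CD43+ monocytes (1.27, adjusted p = 9.615e-05). In CD43+ monocytes Unc93b1 was lower than in Ly6C+ monocytes (-1.37, adjusted p = 0.000225). Ly6C+ monocytes had 336.4 and 468.5 CPM of it, above the LysoDC level in both datasets. Slc29a3 was the listed gene that was lower in LysoDCs than in Ly6C+ monocytes. It was at 25.7 and 31.5 CPM against 80.6 and 45.6 CPM (-1.03, adjusted p = 0.0013).

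Of 6 surface co-receptors, 0 were higher and 4 lower against Ly6C+ monocytes, 1 and 4 against CD43+ monocytes and 0 and 1 against DN cells by edgeR, with the same counts at an unadjusted p under 0.05. Cd180, which codes for a Toll-like receptor homologue without a signalling domain, was at 5.84 and 10.2 CPM in LysoDCs and 92.9 and 65.6 CPM in Ly6C+ monocytes (log2 change -3.32, adjusted p = 3.234e-06). Ly96, coding for MD-2, which binds lipopolysaccharide with TLR4, was at 11.2 and 14.7 CPM against 33.3 and 60.8 CPM (-1.79, adjusted p = 0.000589). Cd36, a scavenger receptor that assists TLR2 and TLR6, was at 174 and 137 CPM in CD43+ and 5.64 and 9.04 CPM in Ly6C+ monocytes (4.12, adjusted p = 0.0290).

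Enzymes of the endolysosome changed in both directions. Of 5 proteases that cleave endosomal receptors, 2 were higher and 1 lower against Ly6C+ monocytes, 2 and 3 against CD43+ monocytes and 3 and 1 against DN cells. Ctsl, coding for cathepsin L, was at 330 and 423 CPM in LysoDCs and 44.3 and 39.8 CPM in Ly6C+ monocytes (log2 change 3.25, adjusted p = 0.000131). Lgmn, coding for the asparagine endopeptidase, was at 1.02 and 5.05 CPM against 41.9 and 91.2 CPM (-4.78, adjusted p = 0.00596). Of 6 nucleases that act upstream of the nucleic acid receptors, 4 were higher and 1 lower against Ly6C+ monocytes, and 5 and 1 against each of the other populations. Pld3 was at 493 and 377 CPM in LysoDCs and 39.7 and 14.4 CPM in Ly6C+ monocytes (4.31, adjusted p = 0.00330), whereas Pld4, which codes for the related exonuclease, was at 38.5 and 71.3 CPM against 600 and 441 CPM (-3.18, adjusted p = 8.165e-05). Dnase1l3, coding for a secreted DNase, was at 888 and 1101 CPM against 61.3 and 8.66 CPM (5.40, adjusted p = 0.0105).

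Adaptors were lower in LysoDCs where they passed. Of 5 adaptors tested among 6 listed, 4 were lower against Ly6C+ monocytes, 5 against CD43+ monocytes and 4 against DN cells, and edgeR called 0 higher. At an unadjusted p under 0.05, 1 was higher against Ly6C+ monocytes and 0 against the other populations. Tirap, which codes for the bridge between MyD88 and TLR2 or TLR4, was at 0.760 and 1.23 CPM in LysoDCs and 24.5 and 22.5 CPM in Ly6C+ monocytes (log2 change -4.62, SE 0.24, adjusted p = 1.009e-07). Myd88 itself was at 32.1 and 34.9 CPM against 59.0 and 68.5 CPM (-0.85, adjusted p = 0.000710). Tirap and Tlr2 were thus both under 2 CPM in LysoDCs and above 20 CPM in Ly6C+ monocytes. Pik3ap1, coding for the adaptor BCAP, was higher in CD43+ than in Ly6C+ monocytes, at 185 and 221 against 34.3 and 34.6 CPM (2.35, adjusted p = 9.24e-06).

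Downstream, 2 of 15 kinases and ubiquitin ligases were higher and 5 lower in LysoDCs against Ly6C+ monocytes, 2 and 5 against CD43+ monocytes and 4 and 3 against DN cells. These counts lie near the shares of all genes. Irak2 was at 124 and 106 CPM in LysoDCs and 37.5 and 21.7 CPM in Ly6C+ monocytes (log2 change 2.07, adjusted p = 9.27e-07). Of 9 transcription factors, 2 were higher and 5 lower against each monocyte population and 3 and 4 against DN cells. Relb was at 220 and 212 CPM against 44.8 and 44.3 CPM (2.35, adjusted p = 4.301e-07), and Nfkb1 at 31.8 and 38.8 CPM against 134 and 139 CPM (-1.88, adjusted p = 1.835e-06). Of 10 negative regulators, 5 were higher and 2 lower against Ly6C+ monocytes, 3 and 3 against CD43+ monocytes and 5 and 1 against DN cells. Irak3, coding for the inhibitory kinase IRAK-M, was at 2.04 and 1.37 CPM in LysoDCs and 43.9 and 35.01 CPM in Ly6C+ monocytes (-4.34, adjusted p = 6.117e-07), whereas Cd300lf, coding for an inhibitory receptor, was higher, with 97.1 and 97.7 CPM in LysoDCs and 20.3 and 11.4 CPM in Ly6C+ monocytes (2.76, adjusted p = 2.198e-06).

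Of 11 other innate sensors tested, 2 were higher and 4 lower against Ly6C+ monocytes, 4 and 2 against CD43+ monocytes and 5 and 2 against DN cells. Tmem173, coding for STING, was at 161 and 164 CPM in LysoDCs and 77.2 and 62.9 CPM in Ly6C+ monocytes (log2 change 1.30, adjusted p = 1.256e-05). Zbp1, coding for a sensor of Z-form nucleic acid, was at 50.5 and 54.5 CPM against 167 and 130 CPM (-1.42, adjusted p = 1.136e-05).

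**Figure D5:**
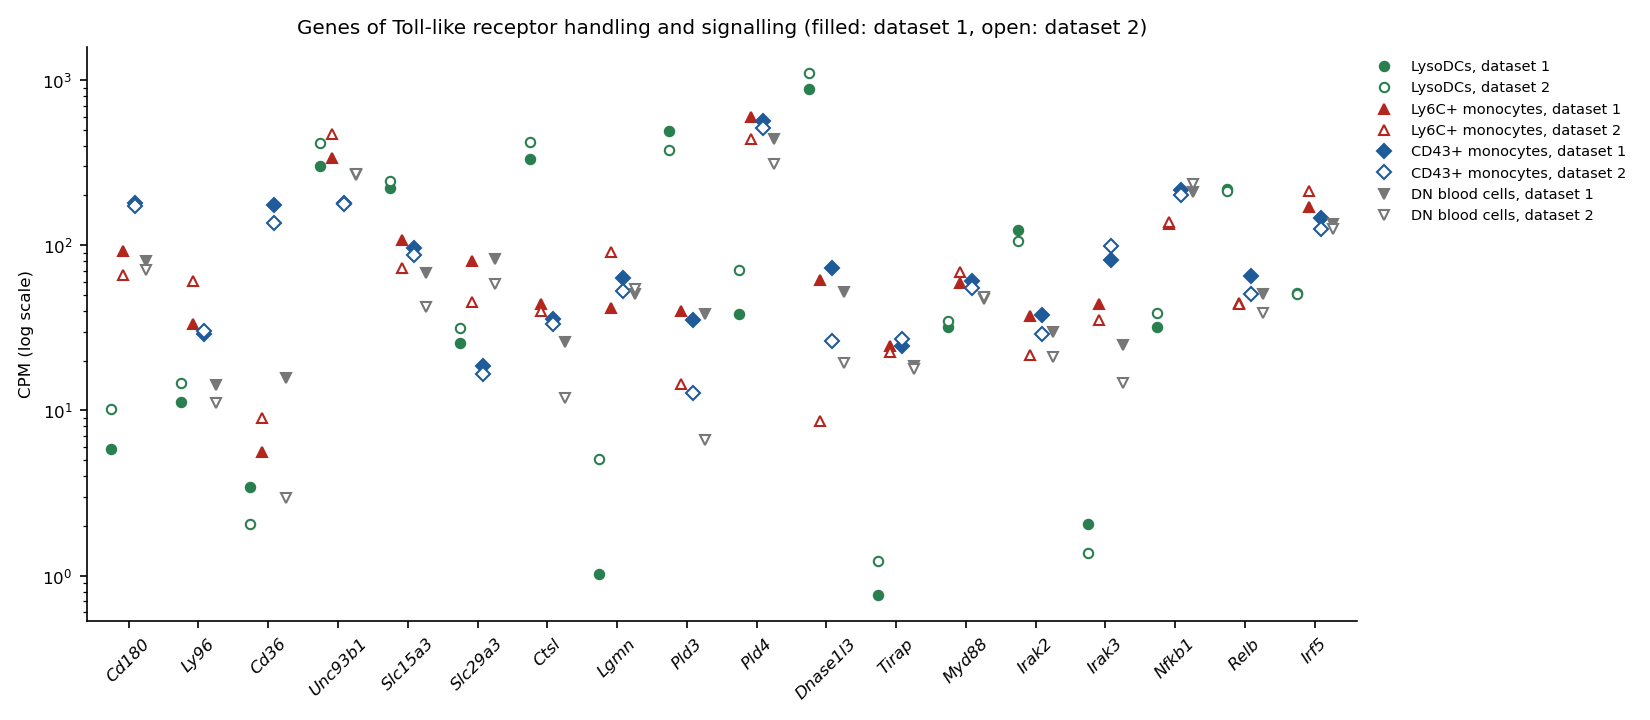
Level (CPM, log axis) of named genes that act with Toll-like receptors in LysoDCs, DN blood cells and both monocyte populations, with each dataset shown separately. Tirap, Irak3, Cd180 and Lgmn lie lowest in LysoDCs, and Pld3, Dnase1l3, Ctsl and Relb lie highest there.

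Of the other Toll-like receptor genes in the tables, Tlr5, which codes for the flagellin receptor, was at 9.61 and 8.87 CPM in LysoDCs, 3.18 and 2.89 CPM in Ly6C+ monocytes, 0.805 and 1.16 CPM in CD43+ monocytes and 1.66 and 0.660 CPM in DN cells. Its log2 change in LysoDCs was 1.67 (adjusted p = 0.00171), 3.49 (adjusted p = 0.000144) and 3.23 (adjusted p = 9.403e-06) in that order. Tlr11, the partner of Tlr12 for profilin, did not share its pattern. It was at 0.157 and 0.546 CPM in LysoDCs and 5.80 and 8.41 CPM in DN cells (log2 change -4.66, adjusted p = 9.674e-06).

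The genes most like each member over the 13 population sums were found by Pearson's r of log2(CPM + 1), among 6143 genes, as a description of sums that share libraries. For Tlr12 these were Chst11 (0.968), Snrnp25 (0.961) and Itga9 (0.958), and for Tlr1 they were Rab3il1 (0.955), Celf4 (0.935) and Tnfrsf11a (0.929). Tlr2 was closest to Sirpb1c (0.988), Emilin2 (0.984) and Kdm7a (0.984), Tlr7 to Fgd4 (0.986), Ldlrad3 (0.986) and Arap1 (0.985), and Tlr13 to Osbpl9 (0.983), Sort1 (0.981) and Tnfrsf1b (0.981). The nearest gene was Dse (0.958) for Tlr4, Nat8l (0.955) for Tlr8, Mafg (0.936) for Tlr6, Lap3 (0.933) for Tlr9 and Qdpr (0.877) for Tlr3.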

How the data were processed

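Count tables were used as deposited. Per the file headers, the authors' matrices are raw UMI counts of genes and hashtags by barcode from Cell Ranger 6.0.1. The submitters' processing notes name Cell Ranger 2.0.0 and mm10. The kit counts the 3' end of transcripts.

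Each dataset's hashtags were assigned by HTODemux in Seurat 5.3.0, at a positive quantile of 0.99. It gave 9069 and 8516 singlets, and 2038 and 4572 barcodes with several hashtags were removed as doublets. Cells needed at least 1000 UMIs, at least 500 genes and at most 10% mitochondrial UMIs. The number of cells depended on the hashtag call. In dataset 2, 681 LysoDCs were used, against 2952 by the scaled hashtag call. In dataset 1, 2118 DN cells and 919 Ly6C+ monocytes were used, against 712 and 423 by that call. The other populations differed less. CPM are UMIs of a gene per 1000000 UMIs of a population, with exact Poisson 95% intervals. For shares of cells the intervals are Clopper-Pearson ones. Intervals and floors (3 counts) cover counting error only.

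Sums of raw counts were tested in edgeR 4.0.16 (R 4.3.3) by robust quasi-likelihood fits after filterByExpr and TMM scaling, on 8 sums (LysoDCs, DN cells and both kinds of monocyte, from each dataset) with 3 residual degrees of freedom. The replicate numbers are the datasets, which the labels describe as separate pools of mice, tagged and run separately, so the dataset was a block. P-values were two-sided, adjusted over the 11474 genes tested, at a threshold of 0.05. Standard errors are approximate, the log2 change over the root of F. All 10 members passed the filter on low counts. The procedure was also run on simulated counts with the same spread for all genes and no dataset effect. That run does not test calls of members with few counts or a wide spread. Alternatives used DESeq2 1.42.0, other scalings, filters and hashtag calls, and leaving out each pool.

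All 10 members were named. From each pathway list the text names some of up to 4 genes per comparison with the largest change, each past the threshold and at 20 CPM or more, in both datasets, in the population where it was higher. Likeness used genes with at least 20 CPM in a sum of each dataset, and subset differences were named at a fold of at least 2 with intervals apart, over all 6 pairs of LysoDC subsets, 2 of them added after seeing the data. The members and lists were chosen with earlier results of these data known. Positions are from GENCODE annotation and sequences from RefSeq, both GRCm38.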

Additional observations from a re-analysis of the deposited data

How the results depend on the processing

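Tlr1 and Tlr2 kept their direction and their call against all 3 blood populations in each of 19 alternatives, Tlr13 in 19, 19 and 18 of 19 (Ly6C+, CD43+, DN), and Tlr12 in 17, 15 and 19 of 19. The dataset block pairs the pools. Without the block, 1 member in place of 3 passed between DN cells and Ly6C+ monocytes. Over all genes 566 were then higher and 516 lower there, in place of 924 and 948. Tlr7 passed without the block in LysoDCs against CD43+ monocytes (-1.93, adjusted p = 0.0190). The 3 LysoDC calls lost were Tlr4 against CD43+ monocytes (adjusted p = 0.0672), Tlr8 against Ly6C+ monocytes (0.155) and Tlr9 against DN cells (0.101). Leaving out each pool in turn gave 3 to 6 members (5 with all pools) for LysoDCs against Ly6C+ monocytes, 4 to 8 (7) against CD43+ monocytes and 4 to 7 (6) against DN cells, 0 to 4 (2) for CD43+ against Ly6C+ monocytes, 0 to 6 (3) for DN cells against Ly6C+ monocytes and 2 to 8 (6) for DN cells against CD43+ monocytes. For CD43+ against Ly6C+ monocytes, DESeq2, the scaled hashtag call and a minimum of 5 CPM called 1 member each. All-gene calls there were 1402 higher and 1536 lower, 1422 and 1469, and 1628 and 1702 in that order, in place of 1652 and 1761. No filter on low counts called 4 members, with 1643 higher and 1997 lower of 18878 genes. For DN cells against Ly6C+ monocytes the scaled hashtag call gave 1 member, with 579 higher and 587 lower of 10989 genes. No filter on low counts gave 5 members there, with 1286 higher and 1184 lower of 18878 genes. The 5 CPM minimum removed Tlr3 and Tlr9.

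Some changes that did not pass turned their sign. With 1 pool left out, LysoDCs against DN cells ranged from -0.061 to 0.82 for Tlr3, -0.64 to 0.061 for Tlr4 and -0.0096 to 2.12 for Tlr7. CD43+ against Ly6C+ monocytes ranged from -7.10 to 1.07 for Tlr12, with -0.27 by DESeq2 and -0.0013 by the scaled hashtag call, and from -0.096 to 0.68 for Tlr4. DN cells against Ly6C+ monocytes ranged from -0.999 to 1.22 for Tlr12, -0.21 to 1.10 for Tlr3, -0.14 to 0.37 for Tlr9, which was at -0.039 with no cell filter, and -0.53 to 0.17 for Tlr4. DN cells against CD43+ monocytes ranged from -1.08 to 7.15 for Tlr12 and -0.24 to 0.39 for Tlr2. There Tlr12 was at -0.0022 with RLE scaling, -0.18 with library totals, -0.15 with the stricter cell filter, -0.060 without stray cells and -0.017 with hashtags called on all barcodes, an alternative chosen after seeing the data. Tlr2 was at -0.19 with library totals and -0.13 with the scaled hashtag call. The causes were not tested.

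Scaling by library totals moved the median of all genes by -0.27 for LysoDCs against CD43+ monocytes, 0.21 for CD43+ against Ly6C+ monocytes and -0.21 for DN cells against CD43+ monocytes. It split the calls into 2390 higher and 4182 lower (3294 and 3091 in the reported fit), 2381 and 1165 (1652 and 1761), and 1384 and 2810 (2051 and 1929). Of the member levels under other cell settings, 761 stayed within their counting interval and 19 did not, among them Tlr12 in LysoDCs of dataset 2, at 34.2 to 52.7 CPM. Of the shares of cells with a UMI, 238 moved beyond their counting interval and 22 did not when cells were thinned to 1000 or 2000 UMIs. Counts of 0 to 4 UMIs for Tlr2, Tlr3, Tlr9 and Tlr12 in single sums limit what depth can show.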
